A study of Homo sapiens with 18 samples.

Results

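The transforming growth factor beta (TGF-beta) pathway was followed through 10 genes: the ligands TGFB1 and TGFB2, the receptors TGFBR1 and TGFBR2, the signal carriers SMAD2, SMAD3 and SMAD4, the inhibitory SMAD6 and SMAD7, and the co-repressor SKIL. They were listed by their role, with earlier results of these data known. Every probe set that maps to a single symbol was taken for each, which gave 37 of the 41091 such probe sets and 10 of 19775 genes. The measurements came from 18 Affymetrix arrays of 2 human prostate cancer cell lines, 22Rv1 and LNCaP, in which the homeobox transcription factor ONECUT2 had been overexpressed or targeted by short hairpin RNA. There were 3 arrays in each of 6 groups: 22Rv1 control, 22Rv1 ONECUT2 overexpression, 22Rv1 scramble shRNA, 22Rv1 ONECUT2 shRNA, LNCaP control and LNCaP ONECUT2 overexpression. Control cells were labelled as vehicle treated, overexpressing cells carried a lentiviral vector with the full-length cDNA, shRNA cells carried pLKO constructs, and transduced cells were selected on puromycin as stable lines. No group was labelled as carrying an empty overexpression vector. In the overexpression comparisons ONECUT2 therefore cannot be told apart from the vector and the selection. Each shRNA group also differed from 22Rv1 control by vector and selection. All groups grew in RPMI-1640 medium with fetal bovine serum. The labels do not say whether a stable line was 1 clone or a pool, nor that replicate arrays had their own cultures. The p-values therefore rest on array-to-array spread that could be purely technical.

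TGF-beta ligands are secreted in a latent form and, once released, bring together TGFBR2, which binds the ligand, and TGFBR1, which phosphorylates SMAD2 and SMAD3. These join SMAD4, enter the nucleus and act on target genes, among them the genes for the brakes of the pathway, SMAD6, SMAD7 and SKIL. In prostate epithelium the pathway is known as a restraint on growth that many carcinoma cells no longer obey although they still make the ligand.

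ONECUT2 itself, read first as a check of the labels, was 1.45-fold higher in overexpressing than in control 22Rv1 cells and 1.58-fold higher in LNCaP (limma, Benjamini-Hochberg adjusted p = 0.00702 and 0.00153). On the arrays labelled ONECUT2 shRNA it was 4.15-fold higher than on the arrays labelled scramble (adjusted p = 7.33e-08), which goes against the label. Against 22Rv1 control it was 2.65-fold lower on the arrays labelled scramble (adjusted p = 8.84e-06) and 1.57-fold higher on those labelled ONECUT2 shRNA (adjusted p = 0.0265). Whether the labels of these groups were exchanged was not tested, so both are named as labelled and no direction of ONECUT2 is read from the names. For beta-actin, the log2 signal of the 3' control probe set minus that of the 5' one, a sign of RNA quality, was in overexpressing 22Rv1 8.06 ± 0.70 (SD, n = 3) against 4.11 ± 0.41 in control, and the other group means lay between 2.85 and 4.27. For GAPDH the same measure was -0.43 ± 0.13 against -0.70 ± 0.086, with the other groups between -0.75 and -0.62. The beta-actin difference of 3.94 gave an exact two-sided permutation p of 0.1, the smallest that 3 arrays against 3 allow, and its part in any result on 22Rv1 overexpression was not tested. The LNCaP overexpression arrays differed among themselves: replicate 1 correlated at 0.967 with the LNCaP control arrays across probe sets, replicates 2 and 3 at 0.944 and 0.949, and the members' values for this group are therefore given with and without replicate 1. Replicate 3 correlated at 0.949 with the 22Rv1 overexpression arrays as well, and replicates 1 and 2 at 0.942 and 0.939. A set of 63 genes was above 9 on every 22Rv1 overexpression array and under 4 on every LNCaP control array. Of these, 31, 29 and 6 stayed under 4 on replicates 1, 2 and 3. The fits without replicate 1 give replicate 3 more weight, and the cause of this pattern was not tested. Of 8 luminal prostate markers measured, 7 exceeded a log2 value of 4 on every 22Rv1 control array and 8 on every LNCaP control array, whereas none of 6 leukocyte and endothelial markers did so in any group. The mean of the luminal markers was 7.69 to 7.84 per array in 22Rv1 overexpression against 8.60 to 8.61 in control, and 8.31 to 9.30 in LNCaP overexpression against about 10.6 in control; its part in the results was not tested. The array medians ran from 3.26 to 3.34, and the number of arrays limits the precision.

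Of the 10 genes, 9 passed the filter on dim genes, a log2 value above 4 on at least 3 arrays, and were tested among 12159 genes. A gene was read from its brightest probe set and was called at an adjusted p under 0.05 over all genes (limma). In 22Rv1 overexpression TGFB1, SMAD3 and SKIL rose and SMAD6 and SMAD7 fell. In LNCaP overexpression TGFB1, SMAD3 and SMAD7 rose and SMAD4 and SMAD6 fell. Thus TGFB1 and SMAD3 were higher and SMAD6 was lower in overexpressing cells of both lines, while SMAD7 moved in opposite directions.

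These counts have to be set against how widely the arrays changed. In 22Rv1 overexpression 5 of 9 were called, where 60.8% of all genes tested were; 3 were higher (36.5% of all genes) and 2 lower (24.3%). The arrays of the groups did not overlap for 8 of the 9 and for 76.7% of all genes, and the median log2 change was 0.33 against 0.10 over all genes. In LNCaP overexpression 5 of 9 were called, against 62.2% of all genes; 3 were higher (34.1%) and 2 lower (28.0%). There the arrays did not overlap for 5 of the 9 and for 58.2% of all genes, with median changes of 0.28 and 0.085. Without LNCaP overexpression replicate 1 the count was 6 of 9, when 72.7% of all genes were called. The shares called were thus close to those of the whole array, and nothing is read from them about the pathway. Of the 4 members called in both lines 3 moved the same way, and of the 5043 genes called in both lines 86.6% did. With array weights, or with only these groups in the fit, TGFBR1, TGFBR2 and SMAD2 were called in 22Rv1 overexpression as well, when 75.9% and 73.9% of all genes were called.

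The arrays labelled ONECUT2 shRNA and those labelled scramble differed in 4 of 9, against 29.6% of all genes: TGFB1 and SMAD3 were higher (13.4% of all genes) and SMAD4 and SMAD6 lower (16.1%), and 6 of the 9 did not overlap (53.6% of all genes). The arrays labelled scramble against 22Rv1 control called 3 of 9 (21.9% of all genes), SMAD6 higher (12.5%) and TGFB1 and SMAD3 lower (9.4%), and 4 did not overlap (50.0%). The arrays labelled ONECUT2 shRNA against 22Rv1 control called SMAD4 alone, lower (2.11% of all genes), and no member higher (2.35%), where 4.46% were called either way; 4 members did not overlap (34.8%). These 3 comparisons share arrays with each other, so their calls are not separate evidence. The lines themselves differed widely: between LNCaP and 22Rv1 control 7 of 9 were called, against 63.6% of all genes. SMAD6 was higher in LNCaP (30.2% of all genes), TGFB1, TGFBR2, SMAD3, SMAD4, SMAD7 and SKIL were lower (33.5%), and the arrays of 8 did not overlap (79.0%). The difference of the overexpression effects between the lines was called for 2 of 9, against 44.7%: it was higher in LNCaP for SMAD7 (18.1%) and lower for SKIL (26.6%).

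**Figure D1:**
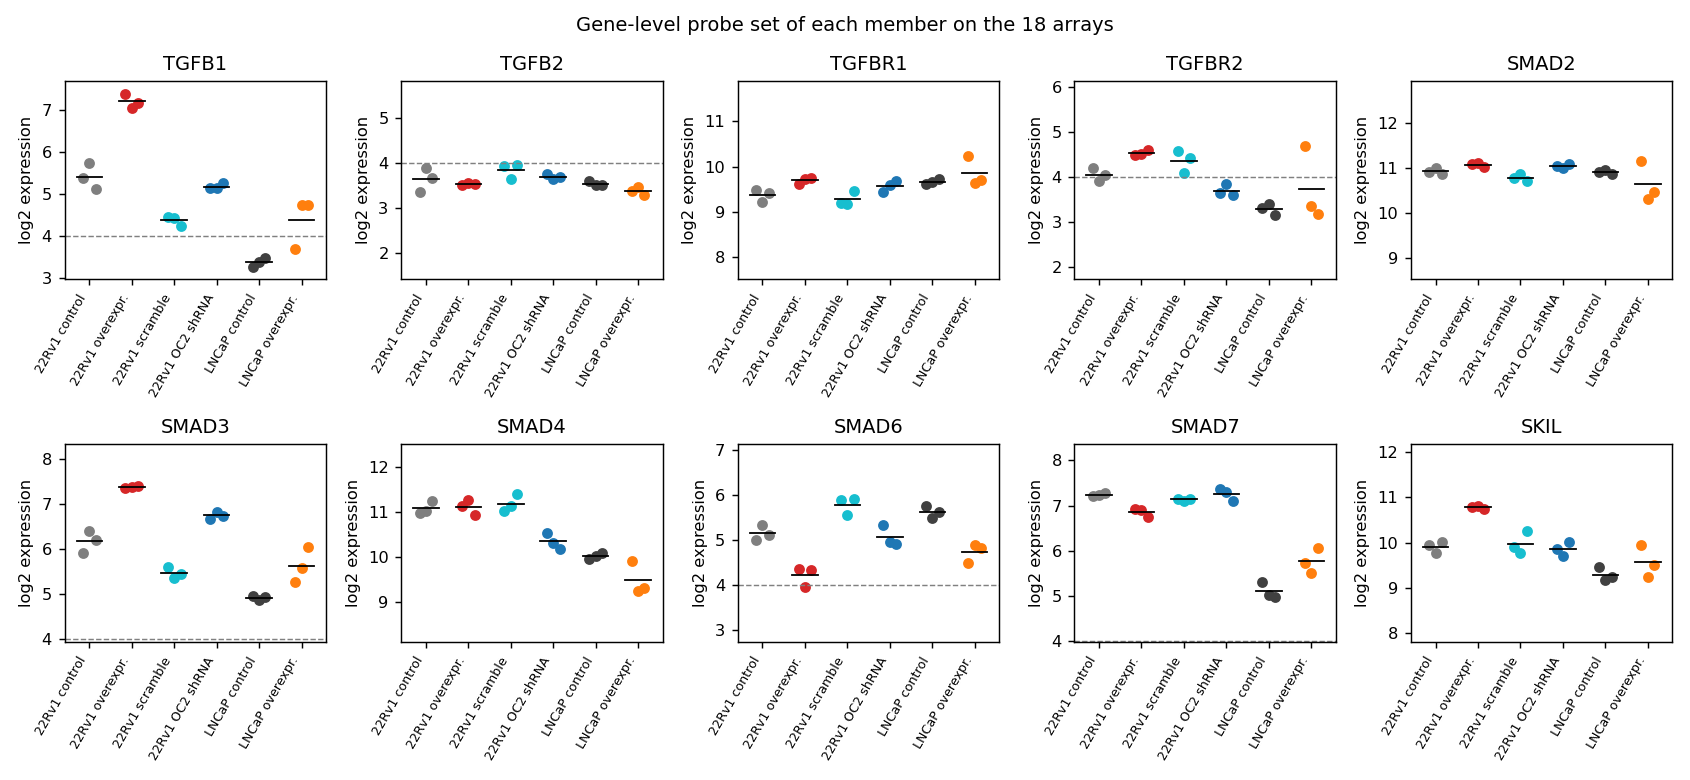
Log2 expression of the gene-level probe set of each of the 10 genes on the 18 arrays, with 1 panel per gene, 1 point per array, a bar at the mean of each group of 3 and a dashed line at a log2 value of 4 where it falls in the panel (OC2 stands for ONECUT2). TGFB1 and SMAD3 are highest on the 22Rv1 overexpression arrays, all TGFB2 points lie under 4, and LNCaP overexpression replicate 1 (left point) lies apart from replicates 2 and 3 for TGFB1, TGFBR2 and SMAD2.

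**Figure D2:**
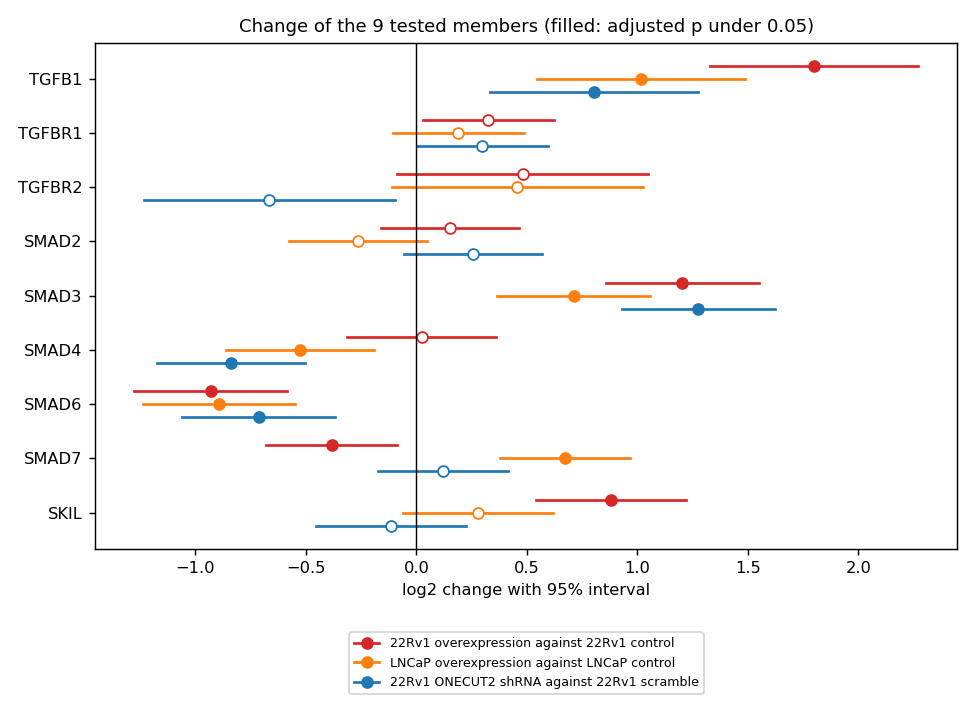
Log2 change with its 95% interval (limma) for the 9 genes tested, in 22Rv1 overexpression, LNCaP overexpression and the arrays labelled ONECUT2 shRNA against those labelled scramble; filled points have an adjusted p under 0.05. SMAD7 lies at -0.38 in 22Rv1 and 0.67 in LNCaP overexpression, while SMAD3 lies to the right of 0 in all 3 comparisons.

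TGFB1 encodes the founding ligand of the pathway, and it had the widest range of the 10 genes, 3.84 log2 units between its highest and lowest group mean. In 22Rv1 control it read 5.38, 5.73 and 5.13 and in 22Rv1 overexpression 7.40, 7.07 and 7.18. All 3 overexpression arrays lay above all controls, the largest gap between neighbouring groups of any of the 10 genes. The change was 3.48-fold (log2 change 1.80 ± 0.22 SE, adjusted p = 3.01e-06, limma), or 0.80 on the log2 scale with the mean of its 2 probe sets. The other probe set, 203084_at, read 2.31 to 2.77 over the 18 arrays, under the filter level of 4, so a mean with it shrinks a change.

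LNCaP control cells had little signal for TGFB1, with 3.26, 3.38 and 3.48, and the overexpression arrays read 3.69, 4.74 and 4.73. Replicate 1 stayed under a log2 value of 4, while the others exceeded it, yet all 3 lay above the controls. Since the controls were all under 4, the change is given as at least 1.31-fold from that value, and the fitted log2 change was 1.02 ± 0.22 (adjusted p = 8.17e-04). Without replicate 1 it was 1.36, and with the mean of the probe sets 0.60; both were called. The smaller fitted change in LNCaP than in 22Rv1 (difference -0.78 ± 0.31, adjusted p = 0.0526) missed the threshold with all arrays and was called when 22Rv1 control replicate 2 (-0.94), LNCaP overexpression replicate 2 (-0.96) or its replicate 3 (-0.95) was left out.

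In the shRNA pair TGFB1 read 4.45, 4.42 and 4.24 on the arrays labelled scramble and 5.14, 5.14 and 5.26 on those labelled ONECUT2 shRNA, again without overlap. The difference was 1.75-fold (0.81 ± 0.22, adjusted p = 0.0115). With the mean of its 2 probe sets, of which 203084_at was under a log2 value of 4 on every array, it was 0.35 and no longer called (adjusted p = 0.0636). Set against 22Rv1 control, the arrays labelled scramble were 2.06-fold below 22Rv1 control (-1.04 ± 0.22, adjusted p = 0.00299), and the arrays labelled ONECUT2 shRNA overlapped the control arrays (-0.24 ± 0.22, adjusted p = 0.665). LNCaP control was at least 2.67-fold below 22Rv1 control (adjusted p = 5.49e-07).

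TGFB2, the ligand that needs betaglycan to reach the receptor well, was not measurable. Its 5 probe sets stayed under a log2 value of 4 on all 18 arrays. The brightest of them read 3.36, 3.88 and 3.67 in 22Rv1 control, 3.52, 3.55 and 3.54 in 22Rv1 overexpression, and 3.28 to 3.47 in LNCaP overexpression, and its group means spanned 0.46. At this signal no difference in TGFB2 could be read.

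TGFBR1, the kinase that phosphorylates SMAD2 and SMAD3, was bright and nearly level in all groups. It read 9.49, 9.21 and 9.41 in 22Rv1 control and 9.62, 9.73 and 9.74 in overexpression, so that the arrays of the groups did not overlap, but the change of 0.33 ± 0.14 missed the threshold (adjusted p = 0.0541, limma). It was called when array weights were used (0.32) or when only these 2 groups entered the fit (0.33). In LNCaP it read 9.62, 9.65 and 9.73 in control and 10.23, 9.64 and 9.70 in overexpression, where replicate 1 alone was high. The change of 0.19 ± 0.14 fell to 0.0028 without that replicate.

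On the arrays labelled ONECUT2 shRNA TGFBR1 read 9.44, 9.60 and 9.67 against 9.19, 9.16 and 9.47 on the arrays labelled scramble. The groups overlapped and the change was 0.30 ± 0.14 (adjusted p = 0.124); it was called with array weights (0.37), quantile normalization (0.35) or the mean of the probe sets (0.29). LNCaP control exceeded 22Rv1 control by 0.30 ± 0.14 (adjusted p = 0.0741), called with centred arrays (0.34), quantile normalization (0.30), array weights (0.29) or only these groups in the fit (0.30), and the group means spanned 0.58 in all.

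TGFBR2, the receptor that binds the ligand, lay near the limit of detection. It read 4.20, 3.91 and 4.04 in 22Rv1 control and 4.49, 4.51 and 4.60 in 22Rv1 overexpression. LNCaP control read 3.31, 3.39 and 3.16. In LNCaP overexpression replicate 1 read 4.69 and replicates 2 and 3 read 3.35 and 3.18, at the level of the controls, so the group's mean rests on 1 array. The changes in 22Rv1 (0.48 ± 0.27, adjusted p = 0.131) and LNCaP (0.46 ± 0.27, adjusted p = 0.150) were not called, and without replicate 1 the LNCaP value was -0.018. Without LNCaP overexpression replicate 3 it was 0.74 and called. The difference between the lines, -0.026 ± 0.38 (adjusted p = 0.962), became -0.50 and called without replicate 1.

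The arrays labelled ONECUT2 shRNA read 3.65, 3.83 and 3.59 for TGFBR2 and those labelled scramble 4.57, 4.09 and 4.42. These did not overlap, but the change of -0.67 ± 0.27 missed the threshold (adjusted p = 0.0743) unless array weights (-0.72) or only these groups (-0.67) were used. LNCaP control was below 22Rv1 control in the fit (-0.77 ± 0.27, adjusted p = 0.0199), which amounts to at least 1.04-fold from a log2 value of 4. That call was lost without 22Rv1 control replicate 1 (-0.69) or LNCaP control replicate 3 (-0.70), and under quantile normalization (-0.64).

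SMAD3, the receptor-activated SMAD that binds DNA directly, followed the same order of groups as TGFB1 at the top and the bottom. It read 5.91, 6.40 and 6.20 in 22Rv1 control and 7.36, 7.36 and 7.40 in 22Rv1 overexpression, and the overexpression arrays lay close together and well above the controls. The change was 2.30-fold (1.20 ± 0.16, adjusted p = 8.48e-06, limma). In LNCaP it read 4.97, 4.86 and 4.92 in control and 5.27, 5.57 and 6.04 in overexpression, all 3 above the controls but spread more widely. The change was 1.64-fold (0.71 ± 0.16, adjusted p = 0.00123) and 0.89 without replicate 1.

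The gap between the SMAD3 effects in the lines, -0.49 ± 0.23, missed the threshold (adjusted p = 0.0936) and was called only when LNCaP overexpression replicate 3 was left out (-0.70). In the shRNA pair SMAD3 had the largest change of the 9 genes. It read 5.59, 5.36 and 5.44 on the arrays labelled scramble and 6.67, 6.82 and 6.74 on the arrays labelled ONECUT2 shRNA, with no overlap, a difference of 2.42-fold (1.28 ± 0.16, adjusted p = 2.34e-05). The arrays labelled scramble were 1.63-fold below 22Rv1 control (-0.70 ± 0.16, adjusted p = 0.00534) and the arrays labelled ONECUT2 shRNA were 0.57 ± 0.16 above it, which missed the threshold (adjusted p = 0.0582) except with array weights (0.63) or only these groups in the fit (0.57). LNCaP control was 2.38-fold below 22Rv1 control (adjusted p = 4.49e-06). Only 1 of the 4 SMAD3 probe sets passed the filter, so no other probe set bears on these values.

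SMAD2, the other receptor-activated SMAD, was nearly level when read from its brightest probe set, 203075_at, whose group means spanned 0.44, but not in its other probe sets tested, which spanned 1.15 (203076_s_at), 1.44 (203077_s_at) and 2.10 (226563_at). It read 10.91, 10.99 and 10.86 in 22Rv1 control and 11.08, 11.12 and 11.02 in 22Rv1 overexpression. LNCaP control read 10.90, 10.94 and 10.86. In LNCaP overexpression replicate 1 read 11.15, above the controls, and replicates 2 and 3 read 10.30 and 10.46, below them. None of the 7 comparisons called this probe set, and the change in LNCaP was -0.26 ± 0.15 (adjusted p = 0.131, limma) with all arrays and -0.52, called, without replicate 1. With array weights (-0.47) or the mean of its probe sets (-0.48) it was called with all arrays. The difference between the lines, -0.41 ± 0.21 (adjusted p = 0.118), was called at -0.67 without replicate 1.

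Other probe sets of SMAD2 did not follow the brightest one in LNCaP. Probe set 203077_s_at read 9.63, 9.51 and 9.80 in LNCaP control and 9.25, 8.45 and 8.73 in overexpression, and 203076_s_at read 9.37, 9.51 and 9.38 against 9.20, 8.33 and 8.57. All overexpression arrays lay below all controls in both, and both fell, by 0.84 ± 0.15 (adjusted p = 1.81e-04) and 0.72 ± 0.16 (adjusted p = 0.00112) in a fit of all 21227 probe sets, 59.1% of which were called. In 22Rv1 overexpression these probe sets were at 0.092 and 0.013 and were not called (adjusted p = 0.629 and 0.953). The effects differed between the lines by -0.93 ± 0.22 (adjusted p = 0.00256) and -0.73 ± 0.23 (adjusted p = 0.0169), where 42.1% of probe sets differed. Without LNCaP overexpression replicate 1 the falls were -1.06 and -0.97. The remaining probe set tested, 226563_at, read 8.45, 8.54 and 7.95 on the arrays labelled scramble and 9.14, 9.20 and 9.13 on the arrays labelled ONECUT2 shRNA. Its change of 0.84 ± 0.30 was just called (adjusted p = 0.0478, where 27.0% of probe sets were called) and was lost when any of these 6 arrays was left out (0.66 to 0.95) or no filter was applied. In LNCaP overexpression it was at -0.69 ± 0.30 (adjusted p = 0.0570) with all arrays and at -1.21, called, without replicate 1. These 3 probe sets were also lower in LNCaP than in 22Rv1 control, by -0.42 for 203076_s_at (adjusted p = 0.0317), -0.51 for 203077_s_at (adjusted p = 0.00838) and -1.15 for 226563_at (adjusted p = 0.00300), while 203075_at was at -0.021; the mean of the probe sets was at -0.45 and called. Of all genes, 63.6% were called between these controls and 33.5% were lower in LNCaP. The share over all probe sets was not computed there. Which transcripts each probe set detects was not examined.

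SMAD4, the partner shared by all receptor-activated SMADs, was called lower in 4 of the 7 comparisons when read from its brightest probe set, 202527_s_at. In LNCaP it read 9.95, 10.02 and 10.08 in control and 9.92, 9.23 and 9.32 in overexpression. All 3 overexpression arrays were below the controls, replicate 1 only narrowly. The change was -0.53 ± 0.16 (1.44-fold lower, adjusted p = 0.00839, limma) and -0.74 without replicate 1; it was lost when only these groups entered the fit (adjusted p = 0.0751). In 22Rv1 overexpression it read 11.12, 11.25 and 10.93 against 10.98, 11.02 and 11.24 in control, overlapping ranges with a change of 0.024 ± 0.16 (adjusted p = 0.909), against 0.27, called, with the mean of its probe sets. The difference between the lines, -0.55 ± 0.22, missed the threshold (adjusted p = 0.0558). It was called without LNCaP overexpression replicate 1 (-0.77), 22Rv1 overexpression replicate 3 (-0.64) or 22Rv1 control replicate 3 (-0.63), with array weights (-0.70) and with the mean of the probe sets (-0.53).

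In the shRNA pair SMAD4 read 11.02, 11.13 and 11.38 on the arrays labelled scramble and 10.53, 10.31 and 10.18 on the arrays labelled ONECUT2 shRNA. The latter lay below every array labelled scramble and every 22Rv1 control array, 1.79-fold lower than those labelled scramble (-0.84 ± 0.16, adjusted p = 7.84e-04) and 1.67-fold lower than control (-0.74 ± 0.16, adjusted p = 0.0128). The second of these calls was lost without 22Rv1 control replicate 3 (-0.66) or without replicate 2 (-0.73) or 3 (-0.66) of the arrays labelled ONECUT2 shRNA. LNCaP control was 2.09-fold below 22Rv1 control (-1.06 ± 0.16, adjusted p = 1.90e-05), or -0.28 with the mean of the probe sets, still called.

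The SMAD4 probe sets disagreed. Probe set 235725_at read 8.07, 8.05 and 8.09 in 22Rv1 control and 8.94, 8.79 and 8.86 in 22Rv1 overexpression, a rise of 0.79 ± 0.13 (adjusted p = 5.60e-05, where 58.1% of probe sets were called) that the brightest probe set did not show. On the arrays labelled ONECUT2 shRNA it read 8.19, 8.43 and 8.46 against 8.05, 8.20 and 8.19 on the arrays labelled scramble (0.21 ± 0.13, adjusted p = 0.243), overlapping where the brightest probe set fell. With the mean of the SMAD4 probe sets the change between these groups was 0.0063 (adjusted p = 0.974) and that against 22Rv1 control 0.047 (adjusted p = 0.892). Every mean of the 5 SMAD4 probe sets, however, includes 2, 1565702_at and 1565703_at, that were under a log2 value of 4 on all 18 arrays. The fall of SMAD4 there rests on probe set 202527_s_at. Between LNCaP and 22Rv1 control 235725_at was at -1.11 (adjusted p = 9.85e-07), like the brightest, and 202526_at at 0.34 (adjusted p = 0.227). In LNCaP overexpression 235725_at read 7.09, 6.56 and 6.76 against 6.97, 6.87 and 7.03 in control (-0.15 ± 0.13, adjusted p = 0.313), and without replicate 1 its change was -0.30 and called. Probe set 202526_at read 4.98, 4.73 and 4.81 in LNCaP control and 4.95, 3.62 and 3.98 in overexpression, where replicate 1 stayed among the controls. Its fall of 0.65 ± 0.24 (adjusted p = 0.0253) was lost without LNCaP control replicate 1 (-0.59) or 3 (-0.67), or LNCaP overexpression replicate 2 (-0.37) or 3 (-0.55), and with only these groups in the fit (adjusted p = 0.156). Without LNCaP overexpression replicate 1 it was -1.04.

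**Figure D3:**
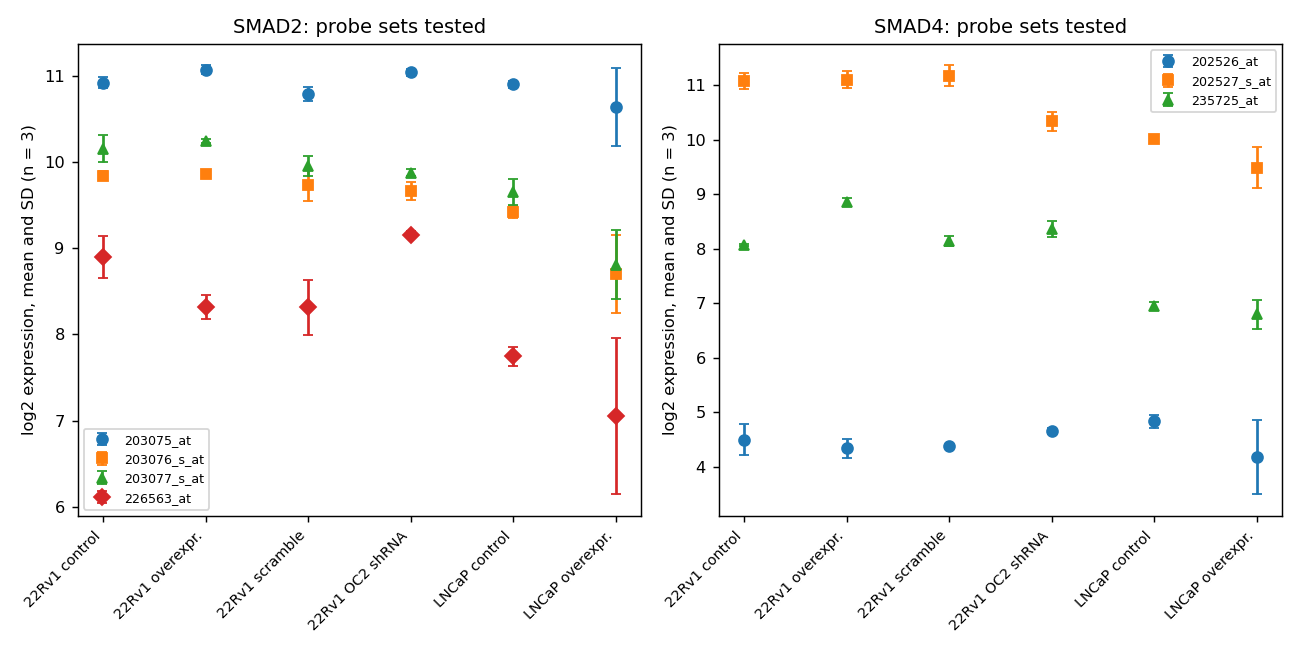
Group means with SD (n = 3 arrays) of the log2 expression of the 4 SMAD2 and 3 SMAD4 probe sets tested, in the 6 groups; levels of different probe sets are not comparable, only the course of each across groups. SMAD2 203076_s_at and 203077_s_at drop in LNCaP overexpression, and SMAD4 235725_at rises in 22Rv1 overexpression while 202527_s_at stays level and drops on the arrays labelled ONECUT2 shRNA.

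SMAD6 and SMAD7, the inhibitory SMADs, and SKIL, which encodes the co-repressor SnoN, are known feedback genes, and their promoters are shown because the 3 moved differently here. The sequences are the 250 bases before the most upstream RefSeq start of each gene (GRCh38.p14), 5′ to 3′ on the gene's strand. Capitals mark the SMAD-binding letters CAGAC, which read GTCTG when they lie on the other strand, and the palindrome GTCTAGAC, which does not contain them. The windows lie at chr15:66701986-66702235 (+) for SMAD6, chr18:48950966-48951215 (-) for SMAD7 and chr3:170357465-170357714 (+) for SKIL.
SMAD6: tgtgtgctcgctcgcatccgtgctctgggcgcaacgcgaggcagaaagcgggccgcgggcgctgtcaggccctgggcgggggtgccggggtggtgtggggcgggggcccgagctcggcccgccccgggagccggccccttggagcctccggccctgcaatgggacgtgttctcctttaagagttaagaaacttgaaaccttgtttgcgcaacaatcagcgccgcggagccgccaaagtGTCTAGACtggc
SMAD7: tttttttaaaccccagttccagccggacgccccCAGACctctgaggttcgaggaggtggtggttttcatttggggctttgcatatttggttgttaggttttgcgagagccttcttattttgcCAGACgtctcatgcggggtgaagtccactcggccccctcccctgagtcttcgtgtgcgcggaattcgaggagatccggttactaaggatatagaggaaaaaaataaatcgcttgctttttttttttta
SKIL: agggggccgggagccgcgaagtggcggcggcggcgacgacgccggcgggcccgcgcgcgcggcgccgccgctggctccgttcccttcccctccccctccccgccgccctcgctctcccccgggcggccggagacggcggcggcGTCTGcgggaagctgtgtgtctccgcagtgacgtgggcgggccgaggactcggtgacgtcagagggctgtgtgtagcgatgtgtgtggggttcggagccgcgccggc
The SMAD6 window holds the palindrome, beginning 12 bases before the start, as do 50 of 27326 promoter windows (0.183%). The SMAD7 window holds CAGAC in 2 places and the SKIL window holds GTCTG in 1, letters found in 37.9% of all windows. Neither appears in the most upstream window of TGFB1, SMAD3, SMAD2 or SMAD4. Over all starts listed, however, 3 of 5 SMAD3 windows held CAGAC or GTCTG, as did 4 of 8 windows of TGFBR1. No listed window of TGFB1, SMAD2 or SMAD4 held these letters or the palindrome. The letters ATCGAT, a core that ONECUT proteins are known to bind, were in none of the windows of the 10 genes and in 0.67% of all. These matches are a description of the letters only.

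SMAD6, which mainly restrains the bone morphogenetic protein branch, was lower in overexpressing cells of both lines. It read 5.01, 5.33 and 5.11 in 22Rv1 control and 4.36, 3.96 and 4.34 in overexpression, and 5.77, 5.48 and 5.63 in LNCaP control and 4.49, 4.88 and 4.83 in overexpression. In neither line did the arrays overlap. It fell 1.91-fold in 22Rv1 (-0.93 ± 0.16, adjusted p = 1.19e-04, limma) and 1.86-fold in LNCaP (-0.89 ± 0.16, adjusted p = 1.69e-04; -0.77 without replicate 1). The difference between the lines was 0.038 ± 0.23 (adjusted p = 0.906). Both falls kept their call in all 14 alternatives in which the gene was tested. Only 1 of the 4 SMAD6 probe sets passed the filter. The mean of its probe sets was therefore not tested, and no other probe set bears on these values. The 22Rv1 overexpression arrays read close to a log2 value of 4, the level of the filter.

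On the arrays labelled scramble SMAD6 read 5.89, 5.55 and 5.91, the highest of any group, and on those labelled ONECUT2 shRNA 5.34, 4.97 and 4.91. The change was -0.71 ± 0.16 (1.64-fold lower, adjusted p = 0.00335). The arrays labelled scramble exceeded 22Rv1 control by 0.64 ± 0.16 (adjusted p = 0.00993), and the arrays labelled ONECUT2 shRNA overlapped control (-0.076 ± 0.16, adjusted p = 0.879). LNCaP control was 1.39-fold above 22Rv1 control (adjusted p = 0.0176), a call lost without replicate 1 of either control (0.41 in both cases).

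SMAD7, which blocks TGFBR1 and brings ubiquitin ligases to it, moved in opposite directions in the 2 lines. In 22Rv1 it read 7.21, 7.24 and 7.28 in control and 6.93, 6.91 and 6.74 in overexpression, all below the controls. The fall was small, 1.30-fold (-0.38 ± 0.14, adjusted p = 0.0255, limma), and missed the threshold without 22Rv1 control replicate 2 (-0.39) or 3 (-0.36) or overexpression replicate 3 (-0.33). In LNCaP it read 5.31, 5.02 and 4.97 in control and 5.74, 5.51 and 6.07 in overexpression, all above the controls. The rise was 1.59-fold (0.67 ± 0.14, adjusted p = 5.30e-04), it was 0.69 without replicate 1, and it was 0.51 and not called with array weights (adjusted p = 0.0793). The difference between the lines was 1.06 ± 0.20 (adjusted p = 4.26e-04) and was called under all 21 alternatives tried, with values from 0.91 to 1.26.

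The lines also differed in SMAD7 before any change of ONECUT2, with LNCaP control 4.43-fold below 22Rv1 control (-2.15 ± 0.14, adjusted p = 9.83e-10). Even after their rise the LNCaP overexpression arrays stayed below every 22Rv1 array. The shRNA pair showed no such shift: the arrays labelled scramble read 7.14, 7.11 and 7.15 and the arrays labelled ONECUT2 shRNA 7.37, 7.31 and 7.09, overlapping, with a change of 0.12 ± 0.14 (adjusted p = 0.570).

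SKIL, whose product SnoN binds the SMADs and recruits repressors, rose in 22Rv1 overexpression. It read 9.95, 9.76 and 10.01 in control and 10.79, 10.82 and 10.75 in overexpression, with no overlap, and the change was 1.84-fold (0.88 ± 0.16, adjusted p = 1.70e-04, limma). With the mean of its 5 probe sets, of which 4 were under a log2 value of 4 on every array, the rise was 0.23 and still called. In LNCaP it read 9.45, 9.16 and 9.23 in control and 9.94, 9.25 and 9.50 in overexpression, with overlap. That change, 0.28 ± 0.16, was not called (adjusted p = 0.140), was 0.092 without replicate 1, and was called at 0.44 without replicate 2 and at 0.37 under quantile normalization.

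The SKIL effects in the lines differed by -0.60 ± 0.23 (adjusted p = 0.0405), a call close to the threshold that was lost in 13 of 21 alternatives. Among these were the fits without 22Rv1 control replicate 1 or 2, any 22Rv1 overexpression array, LNCaP control replicate 1 or 3, or LNCaP overexpression replicate 2 or 3 (values of -0.44 to -0.63). With each array centred on its median it was -0.39 (adjusted p = 0.157). In the shRNA pair SKIL read 9.91, 9.76 and 10.26 on the arrays labelled scramble and 9.86, 9.71 and 10.02 on the arrays labelled ONECUT2 shRNA, which overlapped and were not called (-0.11 ± 0.16, adjusted p = 0.648). Neither group was called against 22Rv1 control. LNCaP control was 1.54-fold below 22Rv1 control (-0.62 ± 0.16, adjusted p = 0.00275), but 0.015 above it with the mean of all probe sets (adjusted p = 0.861).

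The group orders show where neighbours could be told apart. For TGFB1 the order from the top was 22Rv1 overexpression, 22Rv1 control, the arrays labelled ONECUT2 shRNA, LNCaP overexpression, the arrays labelled scramble and LNCaP control. Control overlapped the arrays labelled ONECUT2 shRNA, LNCaP overexpression overlapped the arrays labelled scramble, and the remaining neighbours lay apart. For SMAD3 it was 22Rv1 overexpression, the arrays labelled ONECUT2 shRNA, 22Rv1 control, LNCaP overexpression, the arrays labelled scramble and LNCaP control, with overlap between 22Rv1 control and LNCaP overexpression and between the latter and the arrays labelled scramble. For TGFBR1 all neighbours overlapped. For SMAD7 all 4 groups of 22Rv1 lay above both LNCaP groups.

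Over the 18 arrays, the genes whose level ran most like TGFB1 were TRNP1 (Pearson r = 0.986), EIF2AK1 (0.985) and DNM1 (0.982), and those most like SMAD3 were SLC17A7 (0.981), COL27A1 (0.969) and RND2 (0.968). The arrays form 6 groups, so these values mostly describe 6 group means, and they were the highest of 12159 genes searched. The course of DNM1, a neuronal dynamin, ran from a group mean of 2.21 in LNCaP control to 6.80 in 22Rv1 overexpression.

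The wider pathway was read from 82 further genes in 5 lists, of which 76 were on the array with a single symbol and 53 were tested. In 22Rv1 overexpression 21 rose and 13 fell, a call share to be read against 60.8% of all genes; in LNCaP overexpression 17 rose and 10 fell (62.2% of all genes called), and on the arrays labelled ONECUT2 shRNA against those labelled scramble 7 were higher and 10 lower (29.6%). The median log2 change of the 53 was 0.13, 0.053 and -0.053 in that order, beside 0.10, 0.085 and -0.035 over all genes. Without LNCaP overexpression replicate 1, 5 ligands, 6 receptors, 8 genes of latency and secreted inhibition, 11 regulators and 11 targets were called in LNCaP, in place of 1, 4, 4, 8 and 10. In that fit 72.7% of all genes were called, in place of 62.2%, so nothing is read from these counts about the pathway. BMP2, called among these ligands, read under a log2 value of 4 on all LNCaP arrays. The genes named from each list were up to 2 called ones with the smallest adjusted p in a comparison. Of those called in LNCaP overexpression with all arrays, the log2 change without replicate 1 was 2.62 for GDF11, 0.74 for TGFBR3, 0.79 for ACVR1B, 1.40 for ACVR2B, 1.91 for FSTL3, 1.56 for LTBP1 and 1.37 for LTBP2. It was -0.62 for PMEPA1, -1.93 for WWP1, 4.06 for COL1A1, 3.58 for CDKN1A, 1.95 for ID1 and -1.32 for BHLHE40, and each kept its call. LTBP1 was under a log2 value of 4 on all LNCaP control arrays. LTBP4, called too though under 4 on all LNCaP arrays, was at 0.50 and kept its call. That call was lost without LNCaP control replicate 2 or 3 or LNCaP overexpression replicate 2 or 3. It was also lost under quantile normalization, array weights, only the groups compared and the replicate block. The differences between the lines for GDF11, LTBP2 and STRAP were not called with all arrays and were called without that array, at 1.01, 0.85 and -0.22 in that order.

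**Figure D4:**
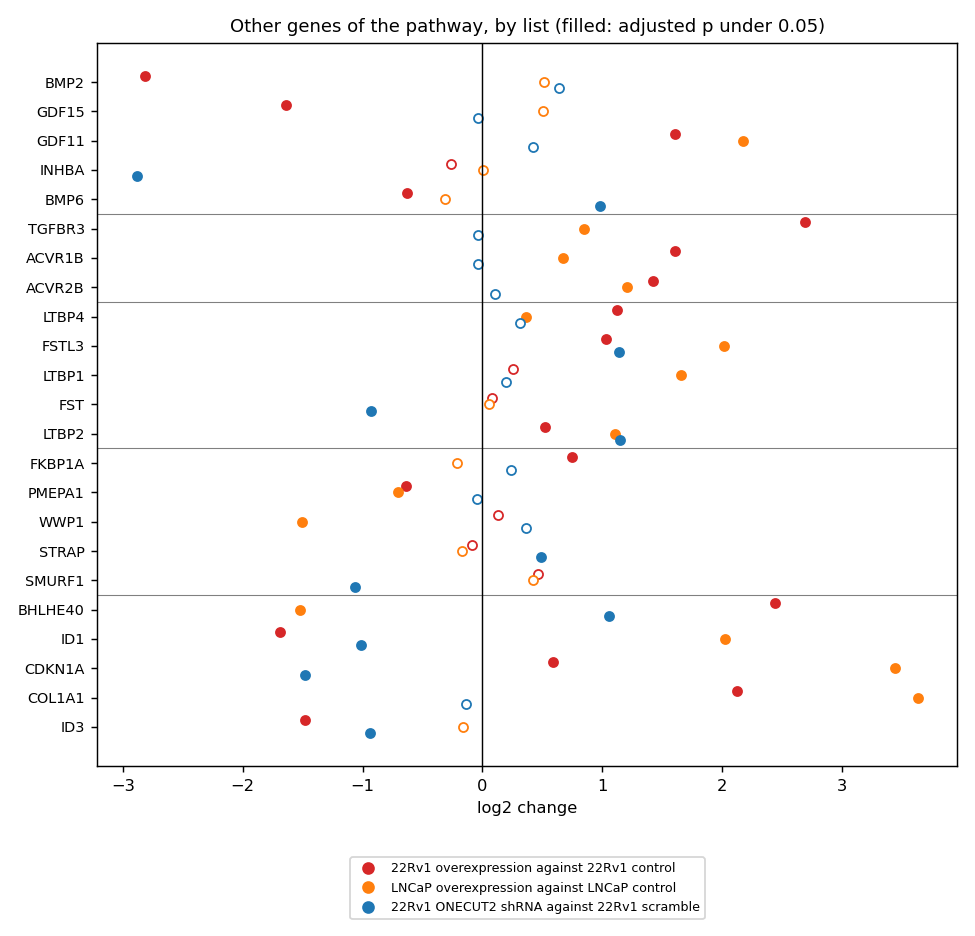
Log2 change of the 23 further pathway genes named, in 22Rv1 overexpression, LNCaP overexpression and the arrays labelled ONECUT2 shRNA against those labelled scramble; filled points have an adjusted p under 0.05, and grey lines part the 5 lists (ligands, receptors, latency and secreted inhibitors, regulators, targets). BMP2 falls by 2.82 in 22Rv1 overexpression, COL1A1 and CDKN1A rise by 3.64 and 3.44 in LNCaP overexpression, and ID1 and BHLHE40 lie on opposite sides of 0 in the 2 lines.

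Of 7 ligands of the family tested, 2 rose and 4 fell in 22Rv1 overexpression (36.5% and 24.3% of all genes). In LNCaP overexpression 1 rose and none fell (34.1% and 28.0%), and without replicate 1 there 5 were called (72.7% of all genes). BMP2, a bone morphogenetic protein, read 10.65, 10.93 and 10.97 in 22Rv1 control and 8.02, 7.93 and 8.14 in overexpression, far below. It fell 7.05-fold (-2.82 ± 0.28, adjusted p = 2.13e-07, limma), and all LNCaP arrays read under 4 for it. GDF15, a stress-induced member of the family, read 10.35, 10.84 and 10.67 in 22Rv1 control and fell to 8.65, 8.96 and 9.33 (-1.64 ± 0.22, adjusted p = 6.40e-06). GDF11, which signals through the activin receptors, rose in both lines, from 4.87, 4.89 and 4.94 to 6.48, 6.49 and 6.55 in 22Rv1 (1.60 ± 0.25, adjusted p = 3.79e-05) and by 2.17 ± 0.25 in LNCaP (adjusted p = 1.43e-06).

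INHBA, the activin A subunit, stood out on the arrays labelled scramble. It read 6.19, 5.42 and 5.88 there and between 2.30 and 3.01 on all other arrays. The arrays labelled ONECUT2 shRNA were at least 3.55-fold lower than those labelled scramble (adjusted p = 1.05e-09). BMP6 was 0.98 ± 0.15 higher on the arrays labelled ONECUT2 shRNA (adjusted p = 9.82e-05) and 0.63 ± 0.15 lower in 22Rv1 overexpression (adjusted p = 0.00130). FST, whose product follistatin traps activin, was likewise high on the arrays labelled scramble, with 4.71, 5.07 and 4.48, and at least 1.68-fold lower on the arrays labelled ONECUT2 shRNA (adjusted p = 1.13e-04).

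Of 7 other receptors 4 rose and 2 fell in 22Rv1 overexpression (36.5% and 24.3% of all genes), and 3 rose and 1 fell in LNCaP (34.1% and 28.0%). TGFBR3, the co-receptor betaglycan, read 5.06, 5.16 and 4.84 in 22Rv1 control and 7.82, 7.78 and 7.53 in overexpression, a gap far beyond the spread of either group. It rose 6.45-fold (2.69 ± 0.16, adjusted p = 8.49e-10) there and by 0.85 ± 0.16 in LNCaP (adjusted p = 2.44e-04; 0.69 and not called with array weights, adjusted p = 0.0921). The activin receptors ACVR1B and ACVR2B rose in both lines, ACVR1B by 1.60 ± 0.12 and 0.67 ± 0.12 and ACVR2B by 1.43 ± 0.20 and 1.20 ± 0.20 in 22Rv1 and LNCaP. On the LNCaP overexpression arrays ACVR2B read 5.08, 5.19 and 6.14, so replicate 3 was the highest. The difference of its effects between the lines was not called with all arrays and was -0.56, called, without that replicate. None of the 7 was called by limma between the arrays labelled ONECUT2 shRNA and those labelled scramble (29.6% of all genes). There 1 had an unadjusted p under 0.05. With array weights 4 were called and with only these groups in the fit 3, when 56.3% and 41.9% of all genes were called.

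Of 10 genes of latency, activation and secreted inhibition, 3 rose and 2 fell in 22Rv1 overexpression (36.5% and 24.3% of all genes). In LNCaP 4 rose and none fell (34.1% and 28.0%), and 2 were higher and 1 lower on the arrays labelled ONECUT2 shRNA (13.4% and 16.1%). The 22Rv1 count was 3 without control replicate 1 or 3 or overexpression replicate 1 (55.2% to 55.4% of all genes). The LNCaP count was 8 without overexpression replicate 1 (72.7%). FSTL3, a follistatin-like inhibitor of activin, was higher in all 3 comparisons (1.04 ± 0.20, 2.02 ± 0.20 and 1.14 ± 0.20, adjusted p = 2.71e-04, 2.13e-07 and 3.92e-04). In LNCaP it read 4.31, 4.50 and 4.75 in control and 6.76, 6.53 and 6.33 in overexpression. LTBP1, LTBP2 and LTBP4 encode the proteins that tether latent TGF-beta to the matrix. LTBP1 was at least 1.52-fold higher in LNCaP overexpression (adjusted p = 1.06e-07) and LTBP4 at least 1.48-fold higher in 22Rv1 overexpression (adjusted p = 7.67e-06). LTBP2 was 1.11 ± 0.19 higher in LNCaP overexpression (adjusted p = 9.92e-05) and 1.15 ± 0.19 higher on the arrays labelled ONECUT2 shRNA (adjusted p = 2.68e-04).

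Of 15 other SMADs, co-repressors and regulators, 6 rose and 1 fell in 22Rv1 overexpression (36.5% and 24.3% of all genes). In LNCaP 2 rose and 6 fell (34.1% and 28.0%), and 2 were higher and 3 lower on the arrays labelled ONECUT2 shRNA (13.4% and 16.1%). PMEPA1, a target gene whose product holds SMAD2 and SMAD3 back from the receptor, fell in both lines, from 11.42, 11.46 and 11.38 to 10.70, 10.86 and 10.80 in 22Rv1 (-0.64 ± 0.081, adjusted p = 4.53e-06) and by 0.71 ± 0.081 in LNCaP (adjusted p = 1.37e-06). FKBP1A, which guards TGFBR1 against firing without ligand, was 0.74 ± 0.094 higher in 22Rv1 overexpression (adjusted p = 4.09e-06), but with the mean of its probe sets it was 0.62 lower and called. WWP1, a ubiquitin ligase, fell by 1.51 ± 0.25 in LNCaP (adjusted p = 6.29e-05), from 11.33, 11.51 and 11.35 to 10.74, 9.34 and 9.60, where replicate 1 had moved least. Between the arrays labelled ONECUT2 shRNA and those labelled scramble, the ligase SMURF1 was lower by 1.06 ± 0.24 (adjusted p = 0.00297; 0.21 and not called with the mean of its probe sets) and STRAP, a receptor-binding inhibitor, higher by 0.49 ± 0.085 (adjusted p = 3.80e-04).

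Of 14 transcriptional targets 6 rose and 4 fell in 22Rv1 overexpression, 7 rose and 3 fell in LNCaP, and 1 was higher and 5 lower on the arrays labelled ONECUT2 shRNA, where 36.5% and 24.3%, 34.1% and 28.0%, and 13.4% and 16.1% of all genes were higher and lower in the same order. COL1A1, a fibrillar collagen gene, rose in both lines, from 7.76, 7.51 and 7.66 to 9.76, 9.81 and 9.71 in 22Rv1 (2.12 ± 0.28, adjusted p = 6.40e-06) and from 8.12, 7.38 and 7.92 to 10.59, 12.00 and 11.74 in LNCaP (3.64 ± 0.28, adjusted p = 1.14e-08). COL1A1 is also a stromal marker. Of the 7 stromal markers it exceeded a log2 value of 4 on all 18 arrays, ACTA2 on 12, LUM on 8, COL3A1 on 7, DCN on 1, and COL1A2 and PDGFRB on none. The mean of the 7 was 3.90 to 4.02 per array in 22Rv1 overexpression against 4.32 to 4.43 in control, and 4.41 to 4.50 in LNCaP overexpression against 4.06 to 4.15 in control; its part in the rise of COL1A1 was not tested. CDKN1A, the cell cycle inhibitor that TGF-beta can induce, read 7.19, 6.98 and 7.24 in LNCaP control and 10.30, 10.73 and 10.72 in overexpression (3.44 ± 0.14, adjusted p = 2.90e-12). In 22Rv1 it rose by 0.59 ± 0.14 (adjusted p = 0.00138), a call lost under quantile normalization (0.33, adjusted p = 0.0518), and it was 1.48 ± 0.14 lower on the arrays labelled ONECUT2 shRNA (adjusted p = 7.75e-07).

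ID1 and ID3, targets of the bone morphogenetic branch that TGF-beta often represses, fell in 22Rv1 overexpression by 1.69 ± 0.17 and 1.48 ± 0.16 (adjusted p = 2.99e-07 and 5.34e-07). ID1 read 11.57, 11.82 and 11.59 in 22Rv1 control and 10.07, 9.82 and 10.03 in overexpression, but 9.38, 9.06 and 8.85 in LNCaP control and 11.26, 11.42 and 10.68 in overexpression. It thus rose by 2.02 ± 0.17 in LNCaP (adjusted p = 3.22e-08), while ID3 there was at -0.16 ± 0.16 (adjusted p = 0.396). BHLHE40, a TGF-beta induced repressor, went the other way: it read 3.61, 4.43 and 4.01 in 22Rv1 control and 6.48, 6.45 and 6.45 in overexpression (2.44 ± 0.22, adjusted p = 9.81e-08), and 8.67, 8.60 and 8.78 in LNCaP control and 6.76, 7.31 and 7.42 in overexpression (-1.52 ± 0.22, adjusted p = 1.89e-05).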

How the data were processed

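Total RNA was hybridised to Affymetrix U133 Plus 2.0 arrays. What the authors deposited is GCRMA expression on a log2 scale, per the submitters' processing notes; no version was given there, nor a statement that the 18 arrays were normalized jointly. Of 54675 probe sets, 41091 mapped to exactly 1 symbol, updated through the gene identifier, and 1801 to several, which were left out. Each gene was read from its brightest probe set by mean signal.

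A single limma 3.58.1 model (R 4.3.3) held all 18 arrays and 6 group means, with 12 residual degrees of freedom and trended, robust empirical Bayes moderation. Benjamini-Hochberg adjustment ran over the 12159 genes, or 21227 probe sets, with at least 3 arrays above a log2 value of 4. The model was also run on simulated data with independent noise and few changed genes. These arrays changed far more widely, so that run does not bear on the calls here. A fold whose lower group lay entirely under 4 was computed from 4 and is written "at least". Pathway genes named were up to 2 per list and comparison by smallest adjusted p among those called; for TGFB1 and SMAD3, the 2 members with the widest range of group means, the 3 genes with the highest Pearson r were named. The members and lists were chosen with earlier results of these data known. Promoter sequences came from RefSeq (GRCh38.p14), where all 10 genes matched. Alternatives covered the probe set standing for a gene, the filter, scaling, moderation, array weights, groups in the fit, a replicate block and each array left out.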

Additional observations from a re-analysis of the deposited data

Results flagged for a closer look

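The overexpression effects in LNCaP and 22Rv1 were compared by an interaction term in limma, and each value here is the log2 change in LNCaP minus that in 22Rv1 for a gene or probe set described above whose adjusted p was under 0.05. SMAD7 (1.06, adjusted p = 4.26e-04) rose in LNCaP and fell in 22Rv1, with all arrays of each line on opposite sides of their controls. SKIL (-0.60, adjusted p = 0.0405) rose in 22Rv1 and was not called in LNCaP. Among the further probe sets, SMAD2 203076_s_at (-0.73) and 203077_s_at (-0.93) fell in LNCaP and were not called in 22Rv1, and SMAD4 235725_at (-0.94) rose in 22Rv1.

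Of the wider pathway, the LNCaP effect was the more positive for BMP2 (3.33), GDF15 (2.14), FSTL3 (0.98), LTBP1 (1.40), CDKN1A (2.85), COL1A1 (1.52), ID1 (3.71) and ID3 (1.32). It was the more negative for TGFBR3 (-1.84), ACVR1B (-0.93), LTBP4 (-0.76), FKBP1A (-0.96), WWP1 (-1.63) and BHLHE40 (-3.96). All LNCaP arrays read under a log2 value of 4 for BMP2 and LTBP4, as did all LNCaP control arrays for LTBP1 and all 22Rv1 control arrays for LTBP4. ID1 and BHLHE40 changed in opposite directions in the 2 lines. The difference for ACVR1B was -0.11 and not called with the mean of its probe sets (adjusted p = 0.413), that for FKBP1A was 0.19 and not called under the same setting, and those for FSTL3 (0.96, adjusted p = 0.0645) and LTBP4 (-0.75, adjusted p = 0.0591) were lost with array weights. Such a difference was called for 44.7% of all genes tested, and nothing particular to the pathway is read from these values.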

How the results depend on the processing

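Of 971 values of single members recomputed under the alternatives, 860 kept their direction and their side of the threshold, 27 lost their call, 40 gained one, and 41 changed sign while missing the threshold both times. With the mean of all probe sets 3 reversed: SMAD4 to 0.0063 between the arrays labelled ONECUT2 shRNA and scramble and to 0.047 between the former and 22Rv1 control, and SKIL to 0.015 between the control lines. These means include probe sets under a log2 value of 4 on every array, 2 of 5 for SMAD4 and 4 of 5 for SKIL. Of the other pathway genes, FKBP1A reversed to -0.62 in 22Rv1 overexpression and to 0.19 in the difference of lines, and PMEPA1 to 0.35 between the arrays labelled ONECUT2 shRNA and scramble. The count of members called in 22Rv1 overexpression was 8 with array weights and 8 with only the groups compared, in place of 5. Of all genes 75.9% and 73.9% were then called, in place of 60.8%. The count for the difference of the lines was 4 with array weights and 1 with no filter, centred arrays or only the groups compared, in place of 2. The shares of all genes were 44.3% with array weights and 29.6%, 46.0% and 39.3% in the others in that order, in place of 44.7%. Array weights gave 7 in place of 4 for the arrays labelled ONECUT2 shRNA against those labelled scramble. In that fit 56.3% of all genes were called, in place of 29.6%. For the arrays labelled ONECUT2 shRNA against 22Rv1 control they gave 2 in place of 1 (28.1% of all genes in place of 4.46%). Only the groups compared gave 2 there as well (16.2%). The mean of all probe sets, under which 6 members were tested, gave 1 for the arrays labelled ONECUT2 shRNA against those labelled scramble, 1 for the latter against control in place of 3, 0 for the former against control and 4 for LNCaP against 22Rv1 control in place of 7. Leaving out 1 array in turn gave 4 to 5 members for 22Rv1 overexpression, 5 to 6 for LNCaP overexpression, 1 to 5 for the difference of the lines, 4 for the arrays labelled ONECUT2 shRNA against those labelled scramble, 3 for the latter against control, 0 to 1 for the former against control and 5 to 7 for the control lines, and a beta-actin difference of 3.65 to 4.33. In these fits 55.1% to 55.7%, 56.6% to 72.7%, 40.0% to 62.1%, 22.7% to 24.7%, 15.3% to 19.1%, 1.73% to 4.14% and 58.6% to 59.2% of all genes were called, in the order of the comparisons. The 5 for the difference of the lines came without LNCaP overexpression replicate 1, when 62.1% of all genes were called. Where a fit without 1 array changed a member's call, that value stands beside the result, and the cause was not tested.

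The correlation of deviations of same-numbered arrays ran from -0.22 to 0.43, and in no comparison did all 3 pairs exceed 0.1, the level set for pairing, so the numbers were not taken to pair the arrays; with the replicate block the counts of members called were 5, 5, 2, 4, 3, 1 and 7, the same as without it. With the block 60.6%, 61.8%, 44.4%, 28.9%, 21.3%, 4.05% and 63.3% of all genes were called, in the same order. Centring each array on its median moved the median change of all genes in 22Rv1 overexpression from 0.10 to -0.073 and in the difference of the lines from -0.096 to 0.11. Signal near background limits TGFB2, TGFBR2, TGFB1 in LNCaP and SMAD6 in 22Rv1 overexpression.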
